A study of Homo sapiens with 6 samples.

Results

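The 10 genes described here encode TGF-β ligands (*TGFB1*, *TGFB2*, *TGFB3*), the related ligands *INHBA* and *BMP4*, the receptors *TGFBR2* and *TGFBR3*, and the signal carriers and inhibitors *SMAD3*, *SMAD6* and *SMAD7*. They were taken by symbol from the count tables, which list 64253 Ensembl genes, and all 10 were among the 16439 genes with enough reads to be tested. The cells were PC-3, a long-established line from a human prostate cancer. Total RNA was extracted from 3 samples labelled shCdGAP, in which an shRNA targets CdGAP, and from 3 labelled shCon, with a control shRNA. Libraries made from this RNA were sequenced. CdGAP is a GTPase-activating protein for Rac1 and Cdc42 encoded by *ARHGAP31*, and the comparison asks which transcripts differ when it is depleted. The labels call the groups shCDGAP and shCONTROL. According to the methods, 1 shRNA against CdGAP was delivered to PC-3 cells by lentivirus, infected cells were selected with puromycin, and single-cell clones were then grown from them. Which clone gave the RNA, whether the cells also carried luciferase, and whether the control cells were cloned are not given in the sources used here. Depletion of CdGAP and the properties of a clone therefore cannot be told apart in any difference below. Because RNA of whole cultures was measured, fewer cells expressing a gene and less RNA per cell cannot be told apart either.

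TGF-β ligands are secreted in a latent complex and, once released, bind a type II receptor that recruits and phosphorylates a type I receptor. The type I receptor for TGF-β and activin phosphorylates SMAD2 and SMAD3, while that for bone morphogenetic proteins (BMPs) phosphorylates SMAD1, SMAD5 and SMAD9. These SMADs enter the nucleus with SMAD4, where they turn on, among other genes, *SMAD6* and *SMAD7*, whose products inhibit the pathway. In prostate epithelium TGF-β is known to restrain growth, and carcinoma cells often lose that restraint while responding in motility and matrix production.

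The shCdGAP libraries had 34011175 to 43154039 counted reads each, and those of shCon cells 33182796 to 42786971. *ARHGAP31* had 26.8 ± 0.351 CPM (counts scaled to a common library size by the TMM method, SD, n = 3) in shCdGAP cells and 59.2 ± 1.22 (SD, n = 3) in shCon cells, a log2 fold change of -1.14 that follows the labels. The shCdGAP cells thus kept 45.3% of the shCon level of this transcript. The epithelial keratin *KRT8* stood at 193 ± 9.44 CPM in shCdGAP and 185 ± 1.30 in shCon cells (SD, n = 3 each). *KLK3*, a prostate secretory gene that PC-3 cells are known not to express, had 0 reads in all 6 libraries, which allows up to 0.0689 to 0.0908 CPM per library for counting error. Of 7 markers of other cell types, 3 were tested and 4 (*PTPRC*, *CD3E*, *VWF* and *CD14*) had 0 to 11 reads in any library. *COL1A2* stood at 279 ± 3.45 and 286 ± 3.23 CPM, *PECAM1* at 3.69 ± 2.00 and 5.52 ± 0.0943 CPM, and *LUM* rose from 0.219 ± 0.0406 to 1.79 ± 0.289 CPM in shCdGAP cells (SD, n = 3 each). *LUM* had enough reads to be tested through the shCdGAP libraries, where it is higher, which favours a difference. *EPCAM*, an epithelial adhesion gene, rose from 83.0 ± 1.35 to 212 ± 10.6 CPM (SD, n = 3 each), and the part of these markers in the results below was not tested. Among shCdGAP libraries, replicates 1 and 3 differed by a root mean square of 0.0794 on the log2 CPM scale, whereas replicate 2 differed from them by 0.223 and 0.242. The pairs of shCon libraries differed by 0.0776 to 0.0942. The change of each of the 10 genes is therefore plotted below with and without shCdGAP replicate 2.

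Sequence upstream is shown for 4 of the 6 genes that passed the test, chosen with their directions known: *TGFB2* and *SMAD6* fell, while *TGFB1* and *TGFB3* rose. *BMP4* and *SMAD3* also passed, and their sequences are not shown. Each line is the 150 bases before the RefSeq start of transcription on GRCh38.p14, read 5′ to 3′ on the gene's own strand. Capitals mark CAGAC, the half-site that SMAD proteins bind, GTCTAGAC, a palindrome of the AGAC within that half-site, and CACGTG, an E-box. Both strands were searched for these and for TGACGTCA and TGANTCA, the sites of CREB and AP-1 proteins. The *TGFB1* sequence is chr19:41353923-41354072 on the minus strand, *TGFB2* is chr1:218345186-218345335 on the plus strand, *TGFB3* is chr14:75983012-75983161 on the minus strand, and *SMAD6* is chr15:66702086-66702235 on the plus strand.
TGFB1: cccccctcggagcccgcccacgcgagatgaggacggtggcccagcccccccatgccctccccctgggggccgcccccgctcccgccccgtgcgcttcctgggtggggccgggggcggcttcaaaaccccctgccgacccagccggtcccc
TGFB2: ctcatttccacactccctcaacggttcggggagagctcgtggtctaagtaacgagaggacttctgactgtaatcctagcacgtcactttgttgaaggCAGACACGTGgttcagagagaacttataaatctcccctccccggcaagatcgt
TGFB3: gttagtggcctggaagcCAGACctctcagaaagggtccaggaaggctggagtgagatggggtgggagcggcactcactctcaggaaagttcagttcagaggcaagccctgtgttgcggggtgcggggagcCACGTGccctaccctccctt
SMAD6: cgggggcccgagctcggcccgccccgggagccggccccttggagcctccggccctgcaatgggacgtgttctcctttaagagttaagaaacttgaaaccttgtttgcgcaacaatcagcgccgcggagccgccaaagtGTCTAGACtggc
In the *TGFB2* line CAGAC lies at positions -53 to -49 from the start site and shares a base with CACGTG at -49 to -44. The *TGFB3* line holds CACGTG at -20 to -15 and CAGAC at -133 to -129. In *SMAD6* the palindrome lies at -12 to -5, and the *TGFB1* line holds none of the 5 motifs. All 10 genes had at least 1 RefSeq promoter window of 300 bases, from 250 before to 50 after a start site. Of 34943 such windows in the genome, CAGAC was in 45.277%, CACGTG in 7.229% and GTCTAGAC in 0.203%. TGANTCA, in 7.724% of windows, overlapped the start site of *TGFBR2* at -6 to 1 and also lay in a window of *SMAD3*, and TGACGTCA, in 1.837%, was in no window of these genes. *TGFB2* and *TGFB3* thus share an E-box close to the start site, and windows of *BMP4* and *SMAD3* hold one too, while the transcripts of *TGFB2* and *TGFB3* changed in opposite directions. A match to such letters is a description of the sequence only. GC content of the window of 300 bases was 77.3% for *TGFB1*, 51.7% for *TGFB2*, 56% for *TGFB3* and 68.0% for *SMAD6*, against a median of 58.7% over all windows.

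Of the 10 genes, 6 passed an adjusted p-value of 0.01 in edgeR's quasi-likelihood test, 3 higher (*TGFB1*, *TGFB3* and *SMAD3*) and 3 lower (*TGFB2*, *BMP4* and *SMAD6*) in shCdGAP cells. Over all tested genes 46.2% passed, 24.1% higher and 22.0% lower, so the share among the 10 was not far from the background. With a limit of 1 on the absolute log2 fold change, 0 of the 10 were called higher, where 8.56% of all genes were, and 2 (*TGFB2* and *BMP4*) were called lower, where 4.19% were. *BMP4* had fewer than 3 shCdGAP libraries above the filter on low counts and so was tested through the shCon libraries, where it is higher, which favours a difference. Leaving *BMP4* aside, 2 genes fell and 1 was called lower. The groups of libraries did not overlap for 8 of the 10, compared with 67.1% of all tested genes. Without shCdGAP replicate 2 the counts were 3 higher and 5 lower, and 3 genes were called. Without any one of the 3 shCon replicates they were 1 higher and 2 lower. Without shCdGAP replicate 1 they were 2 higher and 3 lower, and without shCdGAP replicate 3 they were 2 higher and 2 lower, and in each of these 5 cases 1 gene was called. With all libraries neither receptor passed, and the only SMAD that rose was *SMAD3*, whose call is lost with the replicate block and in each of these 5 cases.

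*TGFB2* (ENSG00000092969, chr1:218346235-218444619, plus strand) encodes the TGF-β2 ligand and had the largest change of the 10 genes. It stood at 35.0, 63.2 and 34.4 CPM in shCdGAP replicates 1, 2 and 3 and at 216, 209.9 and 207 CPM in shCon replicates 1, 2 and 3. Every shCdGAP library was far below every shCon library, and shCdGAP replicate 2 lay above the other two. Mean levels of 44.2 ± 16.4 and 211 ± 4.81 CPM (SD, n = 3 per group) were 4.76-fold apart, and the log2 fold change was -2.25 (95% interval -2.93 to -1.57, SE 0.266, adjusted p = 0.00115). Without shCdGAP replicate 2 it was -2.61, and it passed 0.01 under the 14 alternatives other than glmTreat. With glmTreat, a test for a log2 fold change beyond 1, 0 of the 10 genes were called. The transcript of *TGFB2-AS1* (ENSG00000232480, chr1:218344196-218345678), on the opposite strand across the RefSeq start site of *TGFB2*, was chosen after its values were seen. It had 15, 27 and 11 reads in shCdGAP and 44, 46 and 31 in shCon libraries, with means of 0.437 ± 0.161 and 1.03 ± 0.0784 CPM (SD, n = 3 each). *TGFB2-AS1* fell by 1.21 on the log2 scale (SE 0.260, adjusted p = 0.00343), in the same direction as *TGFB2*. It was -1.57 and passed without shCdGAP replicate 2, and it did not pass without shCdGAP replicate 1 (-1.10, adjusted p = 0.0172) or 3 (-1.05, adjusted p = 0.0123) or without shCon replicate 1 (-1.21, adjusted p = 0.0144) or 2 (-1.18, adjusted p = 0.0158). The table headers name strand-specific counting and the methods a single-read kit, and whether reads of *TGFB2* enter the count of *TGFB2-AS1* was not tested. The same limit holds for *TGFB1* and *TGFB3*, which overlap genes on the opposite strand.

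*TGFB1* (ENSG00000105329, chr19:41301587-41353911, minus strand), the most widely expressed of the 3 TGF-β ligands, moved the other way. Its level was 172, 205 and 173 CPM in shCdGAP and 148, 145 and 149.8 CPM in shCon libraries. The groups did not overlap, and shCdGAP replicate 2 was again the highest. From 148 ± 2.26 CPM in shCon it rose to 183 ± 18.8 CPM in shCdGAP cells (SD, n = 3 per group), with a log2 fold change of 0.31 (95% interval 0.16 to 0.46, SE 0.0657, adjusted p = 0.00326). It did not pass 0.01 without shCon replicate 1 (0.30, adjusted p = 0.0174), 2 (0.28, adjusted p = 0.0211) or 3 (0.31, adjusted p = 0.0159), and without shCdGAP replicate 2 it was 0.21.

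*TGFB3* (ENSG00000119699, chr14:75958099-75982991, minus strand), the third ligand isoform, rose with little scatter. It measured 29.9, 30.6 and 29.9 CPM in shCdGAP and 18.0, 17.0 and 18.0 CPM in shCon libraries. All 3 shCdGAP libraries were above all 3 shCon libraries, and replicate 2 did not stand apart here. The means were 30.1 ± 0.398 and 17.7 ± 0.558 CPM (SD, n = 3 each), and the log2 fold change was 0.77 (95% interval 0.66 to 0.88, SE 0.0495, adjusted p = 2.37e-06). It passed under the 14 alternatives other than glmTreat.

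**Figure D1:**
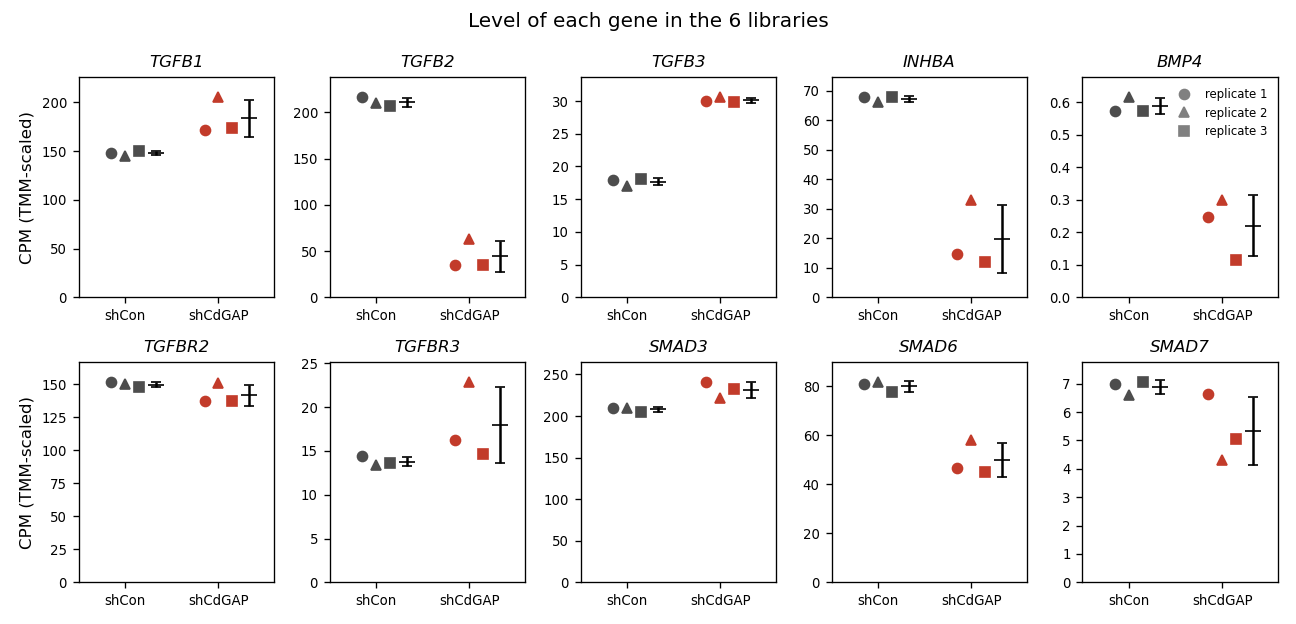
Level of each of the 10 genes in every library, in CPM on axes that start at 0, with shCdGAP and shCon libraries as points and bars for the mean and SD of 3 libraries. *TGFB2*, *INHBA*, *BMP4* and *SMAD6* sit lower in all shCdGAP libraries, and *TGFB1*, *TGFB3*, *TGFBR3* and *SMAD3* sit higher.

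The 3 TGF-β isoforms were then compared within each library as shares of their summed level, in RPKM, which is CPM divided by the exon length of the gene in kilobases. *TGFB1* made up 80.5%, 77.4% and 80.8% of the sum in shCdGAP and 50.1%, 50.4% and 51.3% in shCon libraries. *TGFB2* made up 10.3%, 15% and 10.1% in shCdGAP libraries, against 45.9%, 45.7% and 44.6% in shCon libraries. *TGFB3* made up 9.23%, 7.60% and 9.16%, against 4.0%, 3.89% and 4.07%. So by RPKM *TGFB1* and *TGFB2* were near equal shares in control cells, while *TGFB1* held most of the sum in every shCdGAP library. The near equality rests on the division by exon length. In CPM *TGFB2* was above *TGFB1* in shCon cells (means 211 and 148) and below it in shCdGAP cells (44.2 and 183). The mean share of *TGFB1* was 28.9 percentage points higher (79.5 ± 1.86% against 50.6 ± 0.643%, SD, n = 3 each) and that of *TGFB2* differed by -33.6 points (11.8 ± 2.77% against 45.4 ± 0.702%). *TGFB3* was 4.68 points higher (8.67 ± 0.921% against 3.99 ± 0.0887%). The exact two-sided permutation test gave p = 0.1 for each of the 3 shares, the smallest that 3 against 3 libraries can give, and the shares are not independent because they sum to the whole. The summed level was 66.0, 81.8 and 66.3 RPKM in shCdGAP and 91.5, 89.1 and 90.1 RPKM in shCon libraries. The shCdGAP sum was thus 79.1% of that of shCon cells (71.4 ± 9.07 against 90.3 ± 1.22 RPKM, SD, n = 3 each, exact permutation p = 0.1).

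**Figure D2:**
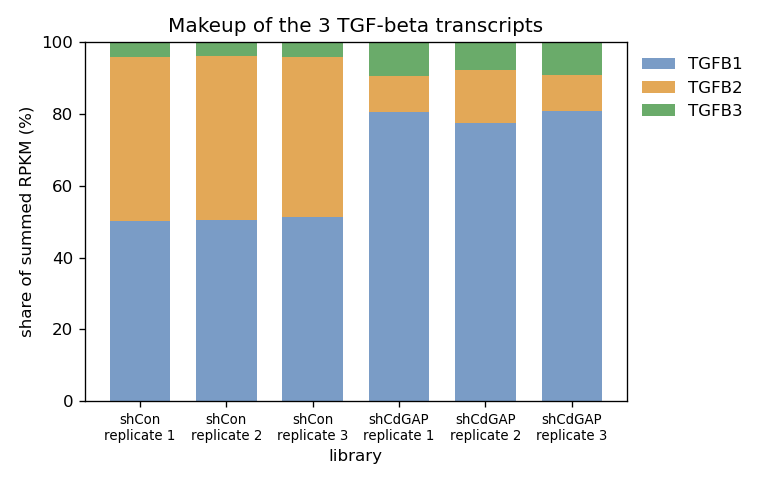
Shares of *TGFB1*, *TGFB2* and *TGFB3* in their summed RPKM (percent), 1 stacked bar per library. *TGFB2* takes 10.1% to 15% of the sum when CdGAP is depleted and 44.6% to 45.9% in control libraries.

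*INHBA* (ENSG00000122641, chr7:41685114-41703108, minus strand) encodes the βA chain of activin A, a ligand that signals through the same SMADs as TGF-β. The libraries had 14.5, 33.0 and 11.9 CPM in shCdGAP and 67.7, 66.0 and 67.7 CPM in shCon cells. The groups did not overlap, but the value of shCdGAP replicate 2 was well above those of the other two. With means of 19.8 ± 11.5 and 67.1 ± 1.01 CPM (SD, n = 3 each), the log2 fold change was -1.75 (95% interval -2.79 to -0.70, SE 0.403), and the adjusted p of 0.0157 missed the threshold. It was -2.35 with an adjusted p of 7.28e-28 without shCdGAP replicate 2, and -1.77 with an adjusted p of 0.000370 in DESeq2. Over its 14 alternatives the adjusted p went up to 0.0558.

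*BMP4* (ENSG00000125378, chr14:53949736-53958761, minus strand) encodes a bone morphogenetic protein and was the least abundant of the 10 genes. It had only 10, 13 and 4 reads in shCdGAP and 24, 26 and 19 reads in shCon libraries, or 0.247, 0.298 and 0.116 against 0.572, 0.616 and 0.575 CPM. All shCdGAP libraries lay below all shCon libraries, and it passed the filter on low counts through the shCon libraries. *BMP4* fell by 1.36 on the log2 scale (95% interval -2.07 to -0.65, SE 0.312, adjusted p = 0.00480), from 0.588 ± 0.0246 to 0.221 ± 0.0938 CPM (SD, n = 3 each). It was -1.65 without shCdGAP replicate 2, and it did not pass in 6 of 13 alternatives. DESeq2 gave -1.40 with an adjusted p of 0.0160. The call was also lost without shCdGAP replicate 1 (-1.44, adjusted p = 0.0157) or 3 (-1.11, adjusted p = 0.0115) and without shCon replicate 1 (-1.40, adjusted p = 0.0165), 2 (-1.34, adjusted p = 0.0199) or 3 (-1.39, adjusted p = 0.0155).

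*TGFBR2* (ENSG00000163513, chr3:30606502-30694142, plus strand) encodes the type II receptor that binds the TGF-β ligands. It stood at 137, 151 and 137 CPM in shCdGAP and 151, 149.8 and 148 CPM in shCon libraries. The groups overlapped because shCdGAP replicate 2 lay at the level of the control libraries. The means were 142 ± 8.08 and 149.7 ± 1.88 CPM (SD, n = 3 each), with a log2 fold change of -0.08 (95% interval -0.18 to 0.02, SE 0.0449, adjusted p = 0.156). Without shCdGAP replicate 2 the log2 fold change was -0.14 with an adjusted p of 2.59e-05.

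*TGFBR3* (ENSG00000069702, chr1:91680343-91906335, minus strand) encodes betaglycan, a co-receptor that is known to present TGF-β2 to the type II receptor. Its level was 16.3, 22.8 and 14.7 CPM in shCdGAP and 14.4, 13.4 and 13.6 CPM in shCon libraries. The groups did not overlap, but shCdGAP replicate 3 was close to shCon replicate 1. The means were 17.9 ± 4.33 and 13.8 ± 0.538 CPM (SD, n = 3 each), and the log2 fold change of 0.38 (95% interval 0.02 to 0.74, SE 0.155, adjusted p = 0.0656) did not pass. It was 0.16 without shCdGAP replicate 2 and 0.50 without shCdGAP replicate 3, and with a filter of 1 read in any library it was 0.39 with an adjusted p of 0.000321.

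*SMAD3* (ENSG00000166949, chr15:67063763-67195195, plus strand) encodes a SMAD that carries the TGF-β and activin signal to the nucleus. It measured 241, 221 and 233 CPM in shCdGAP and 209.7, 209.7 and 205 CPM in shCon libraries. The groups did not overlap, and unlike the other genes that rose, *SMAD3* was lowest in shCdGAP replicate 2. The means were 232 ± 9.73 and 208 ± 3.00 CPM (SD, n = 3 each), a rise of 0.16 on the log2 scale (95% interval 0.07 to 0.24, SE 0.0389, adjusted p = 0.00754). With the replicate number as a block it was 0.16 with an adjusted p of 0.0135, so the call did not hold, and it was lost in 8 of 14 alternatives in all. These included leaving out shCdGAP replicate 1 (0.12, adjusted p = 0.0353) or 3 (0.14, adjusted p = 0.0247) and shCon replicate 1 (0.15, adjusted p = 0.0435), 2 (0.15, adjusted p = 0.0407) or 3 (0.13, adjusted p = 0.0562).

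*SMAD6* (ENSG00000137834, chr15:66702228-66782848, plus strand), whose upstream sequence with the palindrome is shown above, encodes an inhibitory SMAD that acts mainly on BMP signals. It stood at 46.4, 57.8 and 45.0 CPM in shCdGAP and 80.9, 81.6 and 77.4 CPM in shCon libraries. The groups were clearly apart, with shCdGAP replicate 2 the closest to the controls. From 79.9 ± 2.24 CPM it fell to 49.7 ± 7.02 CPM (SD, n = 3 per group), with a log2 fold change of -0.68 (95% interval -0.89 to -0.48, SE 0.0890, adjusted p = 0.000267). It passed under the 14 alternatives other than glmTreat, which gave -0.82 to -0.63.

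*SMAD7* (ENSG00000101665, chr18:48919853-48950711, minus strand) encodes the inhibitory SMAD that directs the TGF-β type I receptor to degradation. The libraries had 6.63, 4.32 and 5.03 CPM in shCdGAP and 6.98, 6.61 and 7.05 CPM in shCon cells. The groups overlapped at shCdGAP replicate 1, and shCdGAP replicate 2 was the lowest of the 6. The means were 5.33 ± 1.19 and 6.88 ± 0.238 CPM (SD, n = 3 each), with a log2 fold change of -0.37 (95% interval -0.71 to -0.03, SE 0.149, adjusted p = 0.0583). Without shCdGAP replicate 1 it was -0.57 with an adjusted p of 0.00422, without shCdGAP replicate 2 it was -0.23, and with a filter of 1 read in any library it was -0.37 with an adjusted p of 0.00755.

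**Figure D3:**
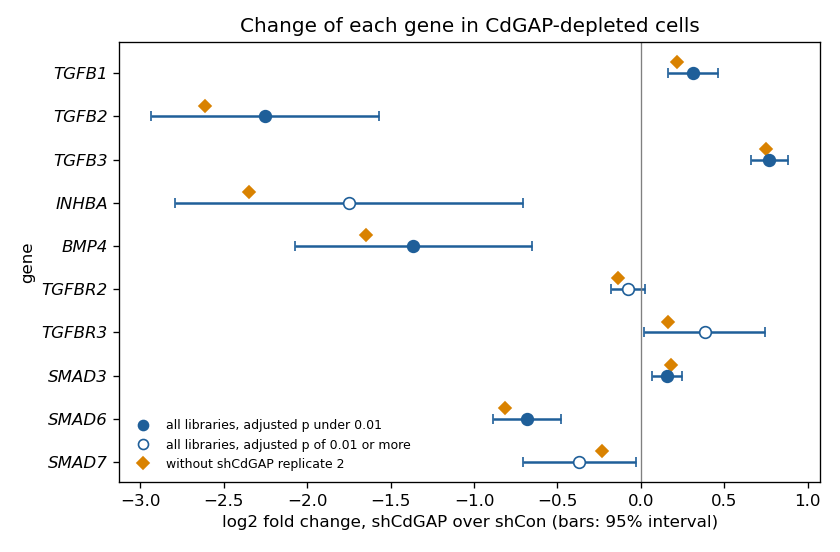
Log2 fold change of each gene in shCdGAP over shCon cells with its 95% interval (3 libraries a group), filled where the adjusted p was under 0.01, and the value without shCdGAP replicate 2 as a diamond. *TGFB2*, *INHBA* and *BMP4* have the widest intervals and lie further from 0 without that library, while *TGFB3* moves from 0.77 to 0.75.

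The scatter within shCdGAP cells differed between the genes. The coefficient of variation of the 3 shCdGAP libraries ran from 1.32% for *TGFB3* to 58.1% for *INHBA*, with 42.5% for *BMP4* and 37.2% for *TGFB2*. In shCon cells it ran from 1.25% to 4.18% over the 10 genes. For comparison, the median over tested genes averaging 3 or more on the log2 CPM scale was 5.26% in shCdGAP and 2.48% in shCon cells. Replicate 2 was the highest shCdGAP library for 8 of the 10 genes, which it was for 41.4% of all tested genes, and the lowest for *SMAD3* and *SMAD7*. Replicate 3 was the lowest for 7 of the 10, against 32.3% of all tested genes. For *TGFB2*, *INHBA*, *BMP4* and *SMAD6* the higher value of replicate 2 lay toward the control level, and for *TGFB1* and *TGFBR3* it lay away from it.

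Ordered by level per length, *TGFB1* was the most abundant of the 10 in both groups, with a mean of 45.7 RPKM in shCon and 56.7 RPKM in shCdGAP cells. In shCon cells *TGFB2* (41.0 RPKM), *TGFBR2* (31.8), *SMAD3* (22.8), *SMAD6* (9.34), *INHBA* (8.91), *TGFB3* (3.60), *SMAD7* (1.86), *TGFBR3* (1.58) and *BMP4* (0.191) followed, and no neighbours in this order overlapped across libraries. In shCdGAP cells the order was *TGFBR2* (30.1 RPKM), *SMAD3* (25.4), *TGFB2* (8.58), *TGFB3* (6.13), *SMAD6* (5.81), *INHBA* (2.63), *TGFBR3* (2.06), *SMAD7* (1.44) and *BMP4* (0.0715). There *TGFB3* and *SMAD6* overlapped, as did *INHBA* with *TGFBR3* and *TGFBR3* with *SMAD7*. The main change of order was thus that *TGFB2* moved from just under *TGFB1* to below *TGFBR2* and *SMAD3*.

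The other ligands of the superfamily were mostly silent, with 11 of 28 listed genes tested. Of these, 5 rose and 3 fell, and the median change on the log2 scale was 0.48, against 0.01 over all tested genes. Of all tested genes, 24.1% rose and 22.0% fell, which is the background for this list and those below. Whether any list differs from that background was not tested. *GDF15*, a stress-induced ligand, rose from 51.2 ± 0.418 to 118 ± 24.3 CPM (log2 fold change 1.21, adjusted p = 0.000313, and 1.02 without shCdGAP replicate 2). *GDF11*, a ligand of the activin receptors, rose from 43.8 ± 0.806 to 88.7 ± 3.14 CPM (1.02, adjusted p = 1.64e-07). At low levels, *AMH* fell from 3.11 ± 0.188 to 0.765 ± 0.0704 CPM (-2.01), *MSTN* rose from 0.119 ± 0.0710 to 0.463 ± 0.0668 CPM (1.93) and *INHA*, the inhibin α chain, rose from 0.315 ± 0.0848 to 0.690 ± 0.118 CPM (1.12). *MSTN* and *INHA* reached the filter on low counts through the shCdGAP libraries, where they are higher, and over the 9 ligands above the filter in all libraries of both groups the median was 0.36. *MSTN* did not pass without shCon replicate 1 (1.51, adjusted p = 0.0126) or 3 (1.92, adjusted p = 0.0145). *INHA* did not pass when any one library was left out, nor with the replicate block (1.12, adjusted p = 0.0177). The levels above are means with SD over 3 libraries, and without shCon replicate 1 or 3 the ligands that rose numbered 3.

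Of 17 other receptors and co-receptors 13 were tested, and 2 rose and 5 fell (median log2 fold change 0.01). Of all tested genes, 24.1% rose and 22.0% fell. *TGFBR1*, the type I receptor that pairs with *TGFBR2*, fell from 46.8 ± 0.421 to 36.8 ± 1.06 CPM (SD, n = 3 each), by 0.35 on the log2 scale (SE 0.0417, adjusted p = 0.000113). It lies on chromosome 9, whose tested genes had a median log2 fold change of -0.42, and 35 of its 50 nearest tested neighbours (median -0.54) were as low as *TGFBR1* or lower. The share of that stretch in the fall was not tested. The BMP receptor *BMPR1B* fell from 33.5 ± 1.14 to 11 ± 1.22 CPM (-1.60, adjusted p = 4.71e-07), and the activin receptor *ACVR2B* fell from 25.1 ± 0.444 to 9.14 ± 1.90 CPM (-1.45, adjusted p = 1.95e-05). *ACVR2B* lies near *TGFBR2* on chromosome 3 among neighbours with a median of -0.44, of which 1 of 50 was as low as *ACVR2B*, and the 50 neighbours of *BMPR1B* had a median of -0.01. *AMHR2*, the receptor of the AMH hormone, rose at a low level from 0.403 ± 0.0212 to 1.04 ± 0.122 CPM (1.37, adjusted p = 0.000429).

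All 18 of the other SMADs and SMAD regulators were tested, and 3 rose and 8 fell, with a median of -0.18 on the log2 scale. None of the 11 that passed changed by more than 1. Of all tested genes, 24.1% rose and 22.0% fell. *SMAD2*, the partner of *SMAD3*, stood at 41.2 ± 1.97 and 42.2 ± 0.746 CPM in shCdGAP and shCon cells (log2 fold change -0.03, 95% interval -0.14 to 0.08, adjusted p = 0.573). *SMAD4*, the shared partner, stood at 27.1 ± 1.35 and 30.0 ± 0.524 CPM (-0.15, adjusted p = 0.0368). Neither passed the test. The 3 that rose were *TGIF1* (0.49, adjusted p = 4.12e-05), *ZFYVE9* (0.36, adjusted p = 9.92e-05) and *USP15* (0.19, adjusted p = 0.00165). *USP15* did not pass without shCon replicate 1 (0.16, adjusted p = 0.0219) or 3 (0.18, adjusted p = 0.0145). The 8 that fell included *SMAD9* (-0.66) and *TGIF2* (-0.63). *SMAD9* lies on chromosome 13 (median -0.99), where 39 of its 50 neighbours were lower (median -0.35) and 13 were as low as *SMAD9*. For *TGIF2* 2 of 50 were as low (median 0.03). Around *TGIF1* 38 of 46 neighbours were higher (median 0.37), and 21 were as high as *TGIF1*. The share of these stretches in the changes was not tested. Like *TGIF1*, *ZFYVE9*, *USP15*, *SMAD9* and *TGIF2*, the genes *PMEPA1* and *SKIL* were chosen after their values were seen. Both encode inhibitors that TGF-β is known to induce. *PMEPA1* had 31.2, 14.7 and 34.8 CPM in shCdGAP and 60.8, 63.4 and 59.7 CPM in shCon libraries (-1.20, adjusted p = 0.0266), and *SKIL* had 68.7, 43.3 and 70.4 against 107, 106 and 105 CPM (-0.81, adjusted p = 0.0107). In both, all shCdGAP libraries were below all shCon libraries and replicate 2 was the lowest, and neither passed 0.01. Without that library both passed, at -0.91 for *PMEPA1* (adjusted p = 6.67e-20) and -0.62 for *SKIL* (adjusted p = 1.28e-20), *SMAD4* also passed (-0.15, adjusted p = 0.00628), and *SKIL* passed without shCdGAP replicate 1 too (-0.92, adjusted p = 0.00944). Without shCdGAP replicate 2 the genes of this list that fell numbered 13.

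Among genes for extracellular latency and antagonism, 19 of 23 were tested, and 4 rose and 7 fell (median -0.14). Of all tested genes, 24.1% rose and 22.0% fell. *LTBP1*, which anchors latent TGF-β in the matrix, rose from 57.3 ± 2.09 to 139.8 ± 17.7 CPM (log2 fold change 1.29, adjusted p = 5.46e-06). *ITGB6*, a chain of an integrin that releases active TGF-β, rose from 2.53 ± 0.266 to 6.57 ± 0.479 CPM (1.37, adjusted p = 1.41e-05). *GREM1*, a secreted BMP antagonist, rose from 1.85 ± 0.364 to 8.99 ± 2.98 CPM (2.27, adjusted p = 0.000339). None of the 7 that fell changed by more than 1. They included *ITGB8* (-0.97, adjusted p = 4.34e-07) and *ITGAV* (-0.26, adjusted p = 0.000407), chosen after their values were seen. Both are integrin chains on the same list as *ITGB6*, and they went the other way. *FST*, which binds activin, stood at 46.2 ± 5.53 and 38.0 ± 1.75 CPM in shCdGAP and shCon cells (0.28, adjusted p = 0.0155) and did not pass, though it did with the replicate block (0.28, adjusted p = 0.00514) and without shCdGAP replicate 2 (0.17, adjusted p = 0.000486). The values are means with SD over 3 libraries. Without shCdGAP replicate 2 the genes of this list that rose numbered 7.

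Of 26 listed TGF-β target genes 25 were tested, and 12 rose and 5 fell (median log2 fold change 0.20), so 8 did not pass. Of all tested genes, 24.1% rose and 22.0% fell. *COL1A1*, a fibrillar collagen chain, rose from 18.0 ± 0.891 to 57.1 ± 1.86 CPM (1.67, adjusted p = 4.38e-08). *SPHK1*, a sphingosine kinase, rose from 6.63 ± 0.359 to 19.2 ± 6.38 CPM (1.52, and 1.76 without shCdGAP replicate 2) but did not pass without shCon replicate 1 (1.55, adjusted p = 0.0102), 2 (1.51, adjusted p = 0.0109) or 3 (1.47, adjusted p = 0.0107). *PTHLH* rose from 0.974 ± 0.0975 to 3.26 ± 0.775 CPM (1.74). The gelatinase *MMP2* had 0 reads in every shCon library and 71.9 ± 18.3 CPM in shCdGAP cells, at least 924-fold higher against a floor of 3 reads per library. *MMP9*, the other gelatinase, was low and rose from 0.0857 ± 0.0129 to 0.502 ± 0.0576 CPM (2.52). *MMP2* and *MMP9* reached the filter on low counts through the shCdGAP libraries alone, and over the other 23 targets the median was 0.10. *TGFBI* and *COL4A1*, chosen after their values were seen, fell by 1.23 (adjusted p = 0.00227) and 1.30 (adjusted p = 3.79e-07) on the log2 scale. *COL4A1* lies on chromosome 13 (median -0.99), where 35 of its 50 neighbours were as low or lower (median -1.59), and with chromosomes 9 and 13 left out 3 genes of this list fell. All these means are given with SD over 3 libraries.

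Of 11 listed BMP target genes 9 were tested, and 4 rose and 2 fell (median -0.24). Of all tested genes, 24.1% rose and 22.0% fell. The 4 that rose, named after their values were seen, were *HEY1* (0.98, adjusted p = 0.00185), *MSX1* (0.78, adjusted p = 0.000338), *MSX2* (0.61, adjusted p = 0.000997) and *ID2* (0.30, adjusted p = 0.000303). *ID1*, an inhibitor of basic helix-loop-helix factors, had 269, 199 and 282 CPM in shCdGAP and 371, 376 and 370.4 CPM in shCon libraries. All shCdGAP libraries lay below the shCon libraries, with replicate 2 the lowest, and *ID1* fell by 0.58 on the log2 scale (SE 0.124, adjusted p = 0.00663). It was -0.44 without shCdGAP replicate 2, and it did not pass without shCon replicate 1 (-0.59, adjusted p = 0.0179), 2 (-0.58, adjusted p = 0.0190) or 3 (-0.59, adjusted p = 0.0171). Without any one of the shCon replicates 1, 2 and 3 the genes of this list that fell numbered 0, and without shCdGAP replicate 2 they numbered 4. Under upper-quartile or library-size scaling 1 gene fell.

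**Figure D4:**
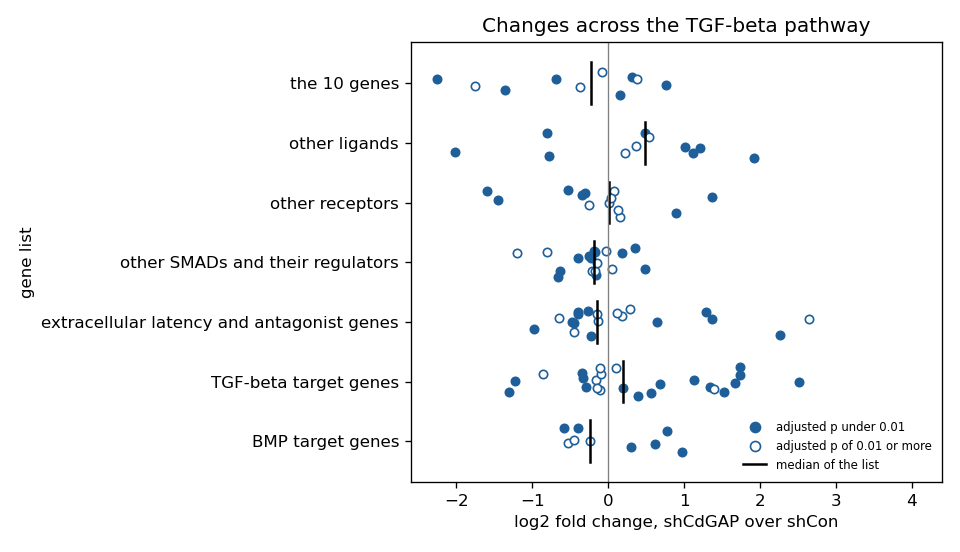
Log2 fold change of every tested gene of each list, shCdGAP over shCon, filled where the adjusted p was under 0.01, with the median of the list as a vertical line. *MMP2* is left off because it had 0 reads in shCon libraries. Genes that rose and genes that fell are seen in every list, and the medians lie between -0.24 and 0.48.

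Chromosomes 9 and 13 had the lowest median log2 fold changes of all chromosomes, as given above, and none of the 10 genes lies on them. Each of the 10 was set beside its 25 tested neighbours on either side. The median log2 fold change of the 50 neighbours was -0.03 for *TGFB2*, 0.10 for *BMP4* and -0.03 for *SMAD6*, and 0, 0 and 2 of the neighbours were as low as the gene itself. For *INHBA* 43 of the 50 neighbours were higher in shCdGAP cells (median 0.27), and 1 was as low as *INHBA*. The neighbours of *TGFB1*, *TGFB3*, *SMAD3* and *SMAD7* had medians of -0.01, -0.05, -0.05 and -0.03, and those of *TGFBR3* had 0.15. With 10 neighbours on either side the medians of these 9 genes lay between -0.21 and 0.20.

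*TGFBR2* was the exception. Its neighbours, on chromosome 3 from 18445024 to 36548007, had a median log2 fold change of -0.72 (interquartile range -0.96 to -0.30), and 40 of the 50 were lower in shCdGAP cells. By the test 35 of them fell and 4 rose. Relative to the mean of the shCon libraries, the median neighbour stood at -0.70, -0.64 and -0.73 on the log2 CPM scale in shCdGAP replicates 1, 2 and 3, so all 3 shCdGAP libraries showed it. *TGFBR2* itself was at -0.13, 0.01 and -0.13 on that scale, and its log2 fold change was 0.64 above the median of its neighbours. Of the 50 neighbours 39 were as low as *TGFBR2* or lower. With 10 neighbours on either side the median was -0.62. Of 15260 tested genes with a full set of neighbours, 0.944% had a neighbourhood median as low, a share that was worked out after the values were seen. Whether the stretch differs in DNA copy number between the groups was not tested.

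**Figure D5:**
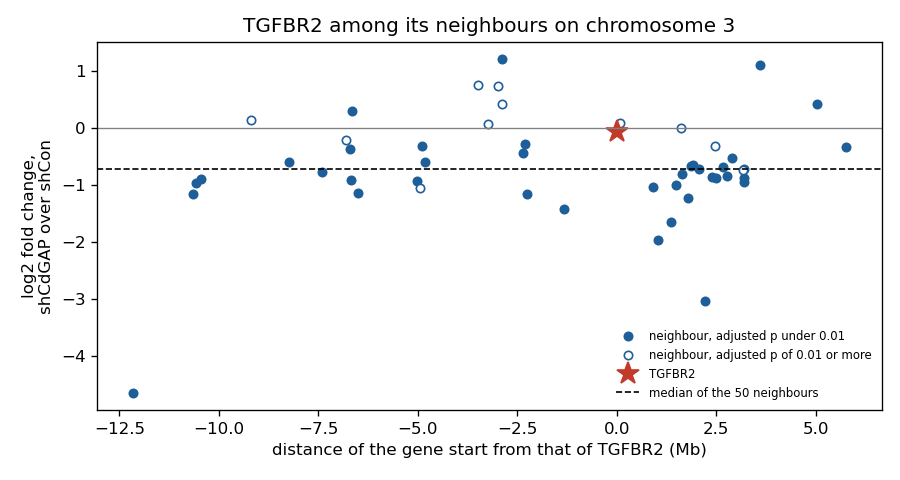
Log2 fold change, shCdGAP over shCon, of *TGFBR2* and its 50 tested neighbours against the distance of each gene from the start of *TGFBR2* in megabases. *TGFBR2* lies at -0.08, while the neighbours have a median of -0.72 and 40 of 50 lie below 0.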

How the data were processed

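RNA of 3 shCdGAP and 3 shCon samples of PC-3 cells was sequenced. The tables that the authors deposited hold raw, unnormalized read counts for each gene, with its summed exon length as another column. Per the labels and methods, reads were checked with FastQC 0.11.5, aligned to GRCh38 with STAR 2.5.1b and counted with featureCounts 1.4.6. Per the file headers, featureCounts 1.6.0 counted strand-specific read pairs on Ensembl release 77, whereas the methods name a single-read kit. The values are taken as the headers describe them. Positions of genes were read from the same tables.

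Genes were filtered with filterByExpr, scaled by TMM and tested with the robust quasi-likelihood F test of edgeR 4.0.16 in R 4.3.3 (limma 3.58.1), with Benjamini-Hochberg adjustment over 16439 genes. Calls used an adjusted p under 0.01, with an absolute log2 fold change over 1 where stated. DESeq2 1.42.0, other scalings, filters and thresholds, glmTreat, chromosomes 9 and 13 left out, a replicate block and each library left out were alternatives. The scripts were tested on simulated data. The main test had no block. Samples of the 2 groups that share a number in their labels deviated together, with correlations of 0.121, 0.126 and 0.117 over the 10282 genes averaging 3 or more on the log2 CPM scale, so by the rule used the number was taken to pair them, although shCdGAP replicate 3 and shCon replicate 1 had 0.104. Libraries of 1 group differed by more than counting noise. The methods name 3 independent samples per group without saying whether they were separate cultures, so p-values measure the spread between these samples.

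The text names all 10 genes, *TGFBR1*, *SMAD2*, *SMAD4*, *ID1* and *FST* whatever their values, and up to 6 called genes with the largest log2 fold change in each list, and others are marked. Some genes that the rule would name are not reported here. The 10 genes and the lists were chosen with earlier results of these data known. Symbols were found for 56105 of 64253 genes, including all listed ones. Promoter sequences are RefSeq's on GRCh38.p14.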

Additional observations from a re-analysis of the deposited data

How the results depend on the processing

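Over 15 alternatives none of the results changed direction. Under the 14 alternatives other than glmTreat, *TGFB2*, *TGFB3* and *SMAD6* passed 0.01. The targeted gene *ARHGAP31* stayed between -1.17 and -1.12 on the log2 scale. The median log2 fold change of all genes was 0.020 with upper-quartile and 0.034 with library-size scaling. The cause of the changes below was not tested.

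With DESeq2 the log2 fold changes were -1.77 for *INHBA*, which then passed, and -1.40 for *BMP4* and 0.14 for *SMAD3*, which then did not. With a filter of 1 read in any library *TGFBR3* (0.39) and *SMAD7* (-0.37) passed. With at least 10 reads in every library *BMP4* was not tested and 1 of the 10 genes was called. At an adjusted p of 0.05, *INHBA* (-1.75) passed, 13 SMADs and regulators were lower and 7 extracellular genes higher. With glmTreat, 658 genes were higher, 340 lower, and 0 of the 10 genes were called. Under upper-quartile and library-size scaling 1 BMP target fell in place of 2. With chromosomes 9 and 13 left out 3 TGF-β targets were lower and *SMAD3* (0.14) did not pass. Pairing by the replicate block left *SMAD3* at 0.16 without its call and changed no other call of the 10 genes. Among other named genes it removed the call of *INHA* and added that of *FST*. With reads in place of RPKM the differences in share were 32.1 points for *TGFB1*, -39.3 for *TGFB2* and 7.12 for *TGFB3*.

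Leaving out 1 library at a time gave 1 to 3 called genes of the 10, 1 to 3 higher and 2 to 5 lower. The ranges of log2 fold changes were 0.21 to 0.35 for *TGFB1*, -0.14 to -0.065 for *TGFBR2*, 0.16 to 0.50 for *TGFBR3*, -2.35 to -1.502 for *INHBA*, -1.65 to -1.11 for *BMP4*, 0.12 to 0.18 for *SMAD3* and -0.57 to -0.23 for *SMAD7*. Other ligands that rose numbered 3 to 4, SMADs and regulators that fell 6 to 13, extracellular genes that rose 4 to 7 and BMP targets that fell 0 to 4. With 1 library left out, 2 remain in that group, and single low-count genes such as *BMP4* are limited by counting error.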
